A study of Mus musculus with 4 samples.

Results

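The cells described here are 149 microglia of the mouse cortex at postnatal day 15 that carried at least 6 UMIs (unique molecular identifiers, 1 per captured transcript) of the chemokine genes Ccl3 and Ccl4 combined, out of 61686 deposited barcodes. They were chosen by raw counts from barcodes with at least 500 UMIs and at most 10% of UMIs from mitochondrial genes. The gate for microglia asked for P2ry12 at 0.15% of UMIs or more, Apoe below 1% of UMIs, and at most 2 UMIs over Lyve1, F13a1, Cd163 and Cbr2, which mark macrophages of the brain borders. Of the 36713 gated microglia, 149 are called chemokine-positive below, and 34006 without any Ccl3 or Ccl4 UMI, called chemokine-zero, served as the comparison. The 2558 cells with 1 to 5 UMIs belong to neither set. Because Ccl3, Ccl4, P2ry12, Apoe and the 4 border genes chose the cells, their levels are a description, with no test.

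Wild-type mice received an adeno-associated virus into the cortex at birth, with the GfaABC1D promoter, active in astrocytes, ahead of the transgene. The transgene was Hevin, a protein secreted by astrocytes and encoded by Sparcl1, or the fluorescent protein mCherry as the control. CD11b-positive cells were then taken at postnatal day 15 on magnetic columns, with the inhibitors actinomycin D, triptolide and anisomycin present in all groups while tissue was dissociated, and PIPseq libraries were made. There were 2 libraries per group, mCherry 1 and 2 and Hevin 1 and 2. The labels give neither the number nor the sex of the animals behind each, so a p-value refers only to variation between libraries, which may be technical. The tests of genes share part of the variance over genes, so an SE or p-value need not reflect the spread of a given gene between libraries.

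CCL3 and CCL4 are small secreted chemokines, also named MIP-1 alpha and MIP-1 beta, that attract leukocytes through G protein-coupled receptors such as CCR1. In the brain, microglia are a main source of both. Their genes are transcribed within minutes to hours of a stimulus, as are the immediate early transcription factors of the EGR, FOS, JUN and ATF families. Such genes are also known to be induced in microglia while tissue is dissociated.

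The chemokine-positive cells numbered 60 in mCherry 1, 49 in mCherry 2, 14 in Hevin 1 and 26 in Hevin 2, and no barcode among them recurred in another library. Total depth was 49781430 to 67832685 UMIs per library. The median chemokine-positive cell held 3888.5, 4276, 2359.5 and 4034.5 UMIs in that order of libraries, above the 3245, 3943, 2054.5 and 3289 of chemokine-zero cells. A fixed count of 6 UMIs is reached more easily in a deeper cell, and that difference stands beside every result. Hevin 1 was the shallowest library and gave 42318 UMIs in its chemokine-positive cells together, against 121186 to 247982 in the others. A value of 23.6 counts per 1000000 UMIs (CPM) in Hevin 1, or 8.25 CPM in Hevin 2, is therefore 1 UMI. For a gene of low level, 1 UMI can be enough to lie above the comparison. Hevin 1 also differed in Xist, the transcript of the inactive X chromosome, at 0 CPM in its chemokine-positive cells against 492 to 1089 CPM elsewhere. In the far more numerous chemokine-zero cells Xist stood at 1.60 CPM in Hevin 1 against 577 to 1302 CPM elsewhere. Mitochondrial genes took 3.33% to 4.23% of the chemokine-positive UMIs and 2.95% to 4.15% of the chemokine-zero UMIs.

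The 7 microglial markers that the gate did not use were all present in every library, with a summed level of 19210 to 21801 CPM in the chemokine-positive sums against 19970 to 22992 CPM in the chemokine-zero sums, and 4 of them were called lower. T and NK cell markers were at 0 in 3 libraries and 4.03 CPM in mCherry 1, and neutrophil markers summed to 0 to 12.1 CPM. Monocyte markers summed to 40.3, 39.9, 70.9 and 132 CPM against 72.5, 61.7, 53.9 and 45.8 CPM, so that both Hevin libraries lay above their comparison and both mCherry libraries below. Plac8 led in Hevin 2, at 82.5 against 11.4 CPM, and Ccr2 in Hevin 1, at 47.3 against 9.30 CPM, and none of the 5 monocyte markers tested passed. The part of such cells in the results was not tested. The 4 border macrophage markers outside the gate summed to 195 to 662 CPM against 195 to 590.5 CPM. Cells with at least 2 UMIs over the markers of endothelial, neural, neutrophil and erythroid cells made up 86.7%, 51.0%, 50% and 53.8% of the chemokine-positive cells, against 82.1%, 57.4%, 34.7% and 42.7% of the chemokine-zero cells.

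Ccl3 and Ccl4 are neighbours on mouse chromosome 11 (mm10), Ccl3 (ENSMUSG00000000982) at 83647844 to 83649355 on the minus strand and Ccl4 (ENSMUSG00000018930) at 83662584 to 83664683 on the plus strand. Ccl6 and then Ccl9 lie on the Ccl3 side of the pair, at 83587882 to 83593087 and 83572919 to 83578636. RefSeq held a promoter window for 6 of 9 genes looked up. The 250 bases before the start are printed for 4 of these 6 genes, 5′ to 3′ along the gene's strand on GRCm38.p6. The windows of Ccl6 and Ccl12 are described without their bases. Capitals mark matches to motifs of the induced factor families: AP-1 (TGANTCA), the CRE/ATF core (TGACGNNA), the whole CRE (TGACGTCA), NF-kB (GGG, any pair of bases NN, then TTTCC) and EGR (GCGNGGGCG). They also mark the TATA box (TATAAA), which is not a motif of those families. Each was searched on both strands.
Ccl3, chr11:83649379-83649628, minus strand: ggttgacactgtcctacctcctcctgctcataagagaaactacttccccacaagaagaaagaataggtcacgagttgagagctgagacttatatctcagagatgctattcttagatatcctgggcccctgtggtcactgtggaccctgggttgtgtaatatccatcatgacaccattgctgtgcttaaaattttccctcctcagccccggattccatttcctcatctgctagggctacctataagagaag
Ccl9, chr11:83578637-83578886, minus strand: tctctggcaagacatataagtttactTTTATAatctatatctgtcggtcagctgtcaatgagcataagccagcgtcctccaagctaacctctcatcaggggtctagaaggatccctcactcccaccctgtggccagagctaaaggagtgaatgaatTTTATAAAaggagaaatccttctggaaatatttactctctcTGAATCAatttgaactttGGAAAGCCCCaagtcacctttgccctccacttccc
Atf3, chr1:191183334-191183583, minus strand: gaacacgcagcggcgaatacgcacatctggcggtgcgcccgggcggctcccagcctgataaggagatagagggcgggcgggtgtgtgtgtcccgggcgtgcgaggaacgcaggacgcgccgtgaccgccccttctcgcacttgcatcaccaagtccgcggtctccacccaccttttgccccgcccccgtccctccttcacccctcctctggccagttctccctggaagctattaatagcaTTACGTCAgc
Csf1, chr3:107760470-107760719, minus strand: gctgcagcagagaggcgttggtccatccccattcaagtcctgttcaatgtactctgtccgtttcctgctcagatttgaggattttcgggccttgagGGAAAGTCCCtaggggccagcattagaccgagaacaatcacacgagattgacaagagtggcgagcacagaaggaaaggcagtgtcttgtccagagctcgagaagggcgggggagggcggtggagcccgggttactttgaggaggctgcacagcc
The Ccl3 window held none of these letters, and neither did the Ccl6 window, which is not printed. The Ccl12 window, also not printed, held TATAAA 31 to 26 bases before the start and none of the other motifs. In Atf3, which encodes a stress-induced transcription factor of the CRE-binding family, TTACGTCA lay 10 to 3 bases before the start, on the strand opposite to the gene. Csf1, the gene of the growth factor that microglia depend on, held GGAAAGTCCC 154 to 145 bases before its start. Ccl9 held TGAATCA 53 to 47 bases before the start, GGAAAGCCCC 35 to 26 bases before it, and TATA matches, a pair of which overlap. Among 32536 promoter windows of the same length, 6.73% held the AP-1 letters, 1.56% the whole CRE, 5.66% the CRE/ATF core, 1.40% the NF-kB letters, 4.74% the EGR letters and 12.3% the TATA letters. A match is a description of these bases, not a bound site.

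Ccl3 stood at 1597, 1942, 1985 and 1659 CPM in the chemokine-positive sums of mCherry 1, mCherry 2, Hevin 1 and Hevin 2. Ccl4 stood at 3133, 2989, 5317 and 2814 CPM. By choice of the cells both were at 0 in the comparison. Per cell, the combined count ran from 6 through a median of 12 to 156 UMIs. Both genes were detected in 113 of 149 cells, Ccl3 without Ccl4 in 17 and Ccl4 without Ccl3 in 19.

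The Ccl4 part of the chemokine UMIs was higher in the cells with the most of them. In cells with 1 or 2 UMIs, Ccl4 made up 42.1%, 36.4%, 33.1% and 35.2% in the order of libraries above. It made up 47.4%, 36.5%, 48.9% and 53.7% in cells with 6 to 11 UMIs. Cells with 12 or more stood at 70.9% (95% exact binomial interval 67.9 to 73.8), 65.7% (62.5 to 68.7), 77.1% (71.5 to 82.0) and 64.2% (59.7 to 68.5). All 4 libraries thus lay higher at 12 or more UMIs than in any class below, and without the richest cell of each library the values were 70.6%, 67.1%, 72.8% and 67.0%. Of the 79 cells with 12 or more UMIs, 57 held more Ccl4 than Ccl3, while 27 of the 70 cells with 6 to 11 did. The intervals cover counting error only, the cells were binned on the sum of the same counts, and no test was made.

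**Figure D1:**
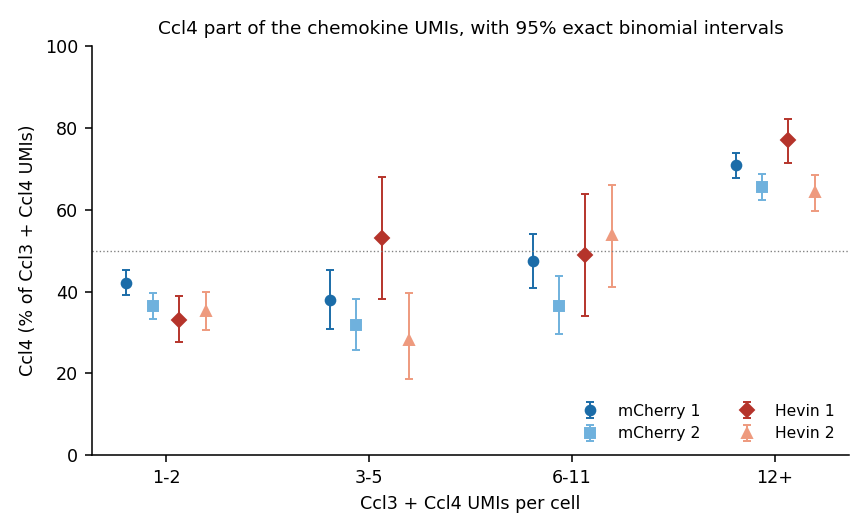
The vertical axis gives Ccl4 as a percent of Ccl3 plus Ccl4 UMIs in gated microglia, and the horizontal axis groups the cells by their combined count, with 1 point per library and bars for 95% exact binomial intervals. Points at 12 or more UMIs lie between 64.2% and 77.1%, above the points of every lower class, and the dotted line marks 50%.

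The other markers proposed for these cells, Atf3, Cd83 and Csf1, were higher than in chemokine-zero microglia in every library, with no overlap. They were proposed from earlier results on these files, so their difference is no independent support for the label. Atf3 stood at 238, 266, 284 and 281 CPM (267 ± 20.9, SD, n = 4 libraries) against 4.79 to 6.05 CPM, a log2 difference of 5.50 ± 0.29 (SE). Cd83, a surface protein of activated antigen-presenting cells, stood at 524, 603, 520 and 380 CPM (507 ± 93.0, SD, n = 4) against 37.9 to 43.1 CPM, a difference of 3.61 ± 0.14. For Csf1 the values were 153, 97.6, 47.3 and 132 CPM (108 ± 46.3, SD, n = 4) against 8.54 to 10.2 CPM, and the difference was 3.59 ± 0.31, with the lowest value in Hevin 1. Atf3 was detected in 76 of the 149 cells, Cd83 in 106 and Csf1 in 44. All 3 were detected in 26 cells, 2 of them in 48, 1 in 52 and none in 23, so the markers did not define the cells one by one at this depth.

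Depth was set equal by thinning each cell of at least 1500 UMIs to 1500, and endothelial cells of the same libraries were set beside. These were chosen as cells that should lack Ccl3 and Ccl4. For Atf3, Cd83 and Csf1 their level need not be that of free RNA. Atf3 then had a UMI in 21.7%, 28.6%, 41.7% and 26.9% of chemokine-positive cells (45.0% to 57.1% unthinned), in 0.537% to 0.942% of chemokine-zero cells and in 1.03% to 2.66% of endothelial cells. Cd83 had one in 48.3%, 61.2%, 50% and 34.6% of chemokine-positive cells, against 4.99% to 5.94% of chemokine-zero and 2.53% to 6.49% of endothelial cells. Csf1 had one in 16.7%, 16.3%, 0% and 19.2%, against 1.05% to 1.35% and 2.41% to 2.67%. In Hevin 1 the 0% rests on 12 cells, after 2 shallower ones were left out. Atf3 and Cd83 thus lay above both other cell sets in all 4 libraries, and Csf1 in 3 of 4.

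Over all genes, summed counts per library of chemokine-positive and chemokine-zero cells were compared with library as a block. Of 13674 genes tested, 673 passed an adjusted p of 0.05 (4.92%), 333 higher (2.44%) and 340 lower (2.49%) in chemokine-positive cells. The median log2 difference over all genes tested was -0.16, so values below are read against that shift. It was -0.06 with DESeq2 size factors, where 441 genes were higher and 188 lower, and -0.08 with total counts only, where 438 were higher and 234 lower. With DESeq2 as the test the split was 227 and 43. Without mCherry 1 it was 167 and 140, and without mCherry 2 it was 174 and 104. Calls with the same direction in all 4 libraries made up 1.73% of the genes tested for higher and 2.08% for lower. Without regard to the test, 828 genes were higher and 2638 lower in all 4 libraries, so a like direction downward was common. Among the genes with a mean of 10 CPM or more, 3.51% were called higher and 3.92% lower in the same fit, whereas a fit on such genes alone called 433 higher and 233 lower. Sums that did not overlap, without regard to the test, were found for 4.57% of genes with chemokine-positive cells higher and for 14.2% with them lower. Differences named below are log2 values ± SE from edgeR with all 4 libraries.

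**Figure D2:**
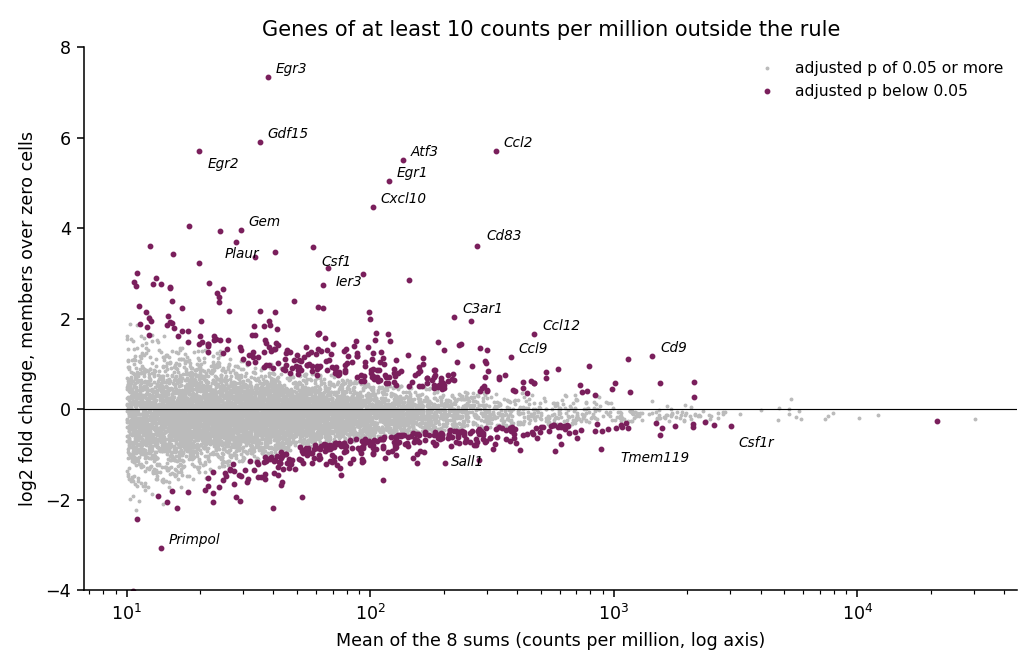
Each point is 1 of 8421 genes with a mean of at least 10 CPM outside the genes of the rule, at its mean level (horizontal, log axis) and its log2 difference between chemokine-positive and chemokine-zero microglia (vertical), and the 625 genes past an adjusted p of 0.05 are coloured. EGR genes, Atf3, Ccl2, Cd83 and Csf1 lie at the top, and 1 gene falls outside the drawn range.

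Immediate early genes were higher as a group. Of 20 tested, 14 were higher and none lower, with a median difference of 1.11. The group shares some of its members with a list of genes known to be induced by dissociation. That list also holds Ccl3 and Ccl4, which chose the cells. Of its 18 other genes tested, 8 were higher, all of them immediate early genes except Gem. Whether handling of the tissue had a part in the result was not tested. Egr3, a zinc finger factor induced by growth signals, stood at 92.7, 53.2, 23.6 and 132 CPM against 0.208 to 0.668 CPM, a difference of 7.35 ± 0.43 (adjusted p = 7.9e-63). Egr1, of the same family, stood at 222, 204, 331 and 173 CPM against 3.54 to 7.94 CPM, a difference of 5.04 ± 0.29 (adjusted p = 8.0e-63). Egr2 stood at 36.3, 39.9, 47.3 and 33.0 CPM against 0.486 to 0.728 CPM, a difference of 5.71 ± 0.53. The EGR levels of all chemokine-positive sums lay above all chemokine-zero sums, although Egr1 was detected in 44 of 149 cells and Egr3 in 18. For Egr3 the value of Hevin 1 was 1 UMI. Fos differed by 2.76 ± 0.56 in 12 cells with a UMI and was at 0 CPM in Hevin 1, while Jun differed by 0.89 ± 0.23 and Junb by 1.02 ± 0.23. Ier3, an early gene that limits cell death, stood at 161, 71.0, 189 and 66.0 CPM against 11.2 to 12.9 CPM (3.12 ± 0.30). Fosl2, Ier5, Klf2, Klf4, Klf6 and Myc did not pass.

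The chemokine ligands outside the rule were higher in 8 of 12 tested and lower in none, with a median difference of 1.27. Ccl2, the main attractant of monocytes through CCR2, stood at 492, 319, 1631 and 140 CPM against 5.57 to 11.6 CPM, a difference of 5.72 ± 0.20 (adjusted p = 3.7e-179). It was carried by 36 of 149 cells, and single cells weighed heavily: the richest cell of each library held 32.8% of 122 UMIs in mCherry 1, 65.3% of 72 in mCherry 2, 75.4% of 69 in Hevin 1 and 41.2% of 17 in Hevin 2. With variance shared over genes in the fit, the SE and p-value of Ccl2 do not reflect its spread of 140 to 1631 CPM between libraries. Ccl12, another mouse ligand of CCR2, stood at 540, 581, 449 and 1304 CPM against 168 to 308 CPM (1.68 ± 0.11, adjusted p = 2.4e-48). Hevin 2 was highest for Ccl12 and lowest for Ccl2. Ccl9, a ligand of CCR1, stood at 629, 696, 331 and 454 CPM against 157 to 286 CPM (1.15 ± 0.12, adjusted p = 6.9e-20). Ccl6, its neighbour, stood at 419, 612, 189 and 338 CPM against 182 to 252 CPM (0.86 ± 0.13, adjusted p = 1.8e-09). The Ccl6 sums overlapped, with Hevin 1 inside the chemokine-zero range. Cxcl16, a membrane-bound ligand of CXCR6, differed by 0.93 ± 0.26 (adjusted p = 0.011). The remaining 3 calls rest on few cells: 75 of 100 Cxcl10 UMIs came from 1 cell of Hevin 2, 90.0% of Ccl5 UMIs from 1 cell and 47.8% of Ccl7 UMIs from 1 cell. Ccl8, Ccl24, Cxcl14 and Pf4 did not pass, with differences of -0.13, 0.13, 1.39 and -0.10. Related chemokine genes can share reads, and how the authors' counting assigned such reads is not given in the sources used here.

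Among the receptors, Ccrl2, an atypical one that presents chemerin without signalling, was higher and stood at 56.5, 22.2, 23.6 and 41.3 CPM against 3.33 to 4.0 CPM (3.24 ± 0.51, adjusted p = 5.2e-08). Ccr1, a receptor of CCL3, was at 94.5 to 198 CPM against 107 to 120 CPM and did not pass.

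**Figure D3:**
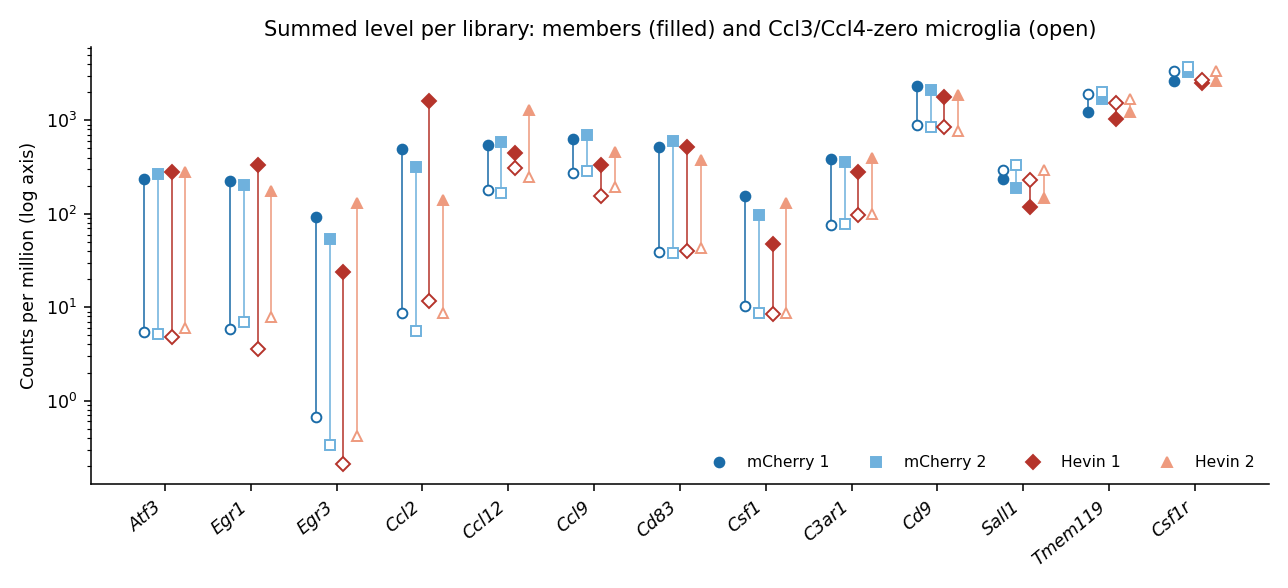
The vertical log axis gives the summed level in CPM for 13 genes, with filled points for chemokine-positive and open points for chemokine-zero microglia of the same library, joined by a line. Atf3, Egr1, Egr3, Ccl2, Cd83 and Csf1 lie far above their open points in all 4 libraries, and Sall1, Tmem119 and Csf1r lie below theirs.

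Inflammatory cytokines were called in 4 of 8 tested, all higher, at low levels. Il1a, which encodes interleukin 1 alpha, stood at 185, 75.4, 165 and 82.5 CPM against 41.1 to 46.3 CPM (1.40 ± 0.22, adjusted p = 2.8e-08). Osm, the gene of oncostatin M, stood at 36.3, 35.5, 118 and 33.0 CPM against 10.4 to 12.2 CPM (1.85 ± 0.42). Both lay above the chemokine-zero range in every library. Tnf (2.81 ± 0.72) rests on 9 UMIs in 7 cells, and Il1b (3.78 ± 0.78) was detected in 5 cells and was at 0 CPM in Hevin 2. The 18 Toll-like receptor and adaptor genes tested held no called member, with a median of 0.11.

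Among NF-kB genes, 3 of 16 tested were higher and none lower. Nfkbia, the inhibitor that NF-kB itself induces, stood at 403, 377, 614 and 479 CPM against 220 to 279 CPM (0.75 ± 0.12, adjusted p = 2.4e-07). Nfkb2, a subunit of the noncanonical arm, stood at 72.6, 66.5, 47.3 and 57.8 CPM against 22.0 to 23.9 CPM (1.42 ± 0.29). Nfkb1 differed by 0.47 ± 0.15 (adjusted p = 0.035), with Hevin 1 at 142 CPM below its comparison of 170 CPM. Of 12 feedback genes of MAP kinase and cytokine signalling, Gem, Dusp2 and Dusp5 were higher and Rgs2 lower. Gem, a small GTPase, stood at 68.6, 48.8, 47.3 and 57.8 CPM against 2.37 to 4.0 CPM (3.97 ± 0.47). Rgs2, an inhibitor of Gq signalling, stood at 492, 506, 331 and 495 CPM against 717 to 811 CPM (-0.76 ± 0.11, adjusted p = 5.9e-09), with no overlap. Gem and Rgs2 thus moved in opposite directions in all 4 libraries.

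At the cell surface, 3 of 11 activation proteins were higher: Cd83, Cd274 and Plaur. Plaur, the urokinase receptor, stood at 88.7, 115, 23.6 and 66.0 CPM against 5.74 to 10.6 CPM (3.47 ± 0.35). Cd274 differed by 3.18 ± 0.70 and was at 0 CPM in Hevin 1. Of 19 phagocytosis and complement genes, both anaphylatoxin receptors were higher and Mertk was lower. C3ar1, the receptor of C3a, stood at 387, 355, 284 and 396 CPM against 75.9 to 99.2 CPM (2.04 ± 0.14, adjusted p = 2.3e-45). C5ar1, the receptor of C5a, stood at 145, 182, 142 and 173 CPM against 36.7 to 40.9 CPM (2.01 ± 0.21, adjusted p = 7.1e-20). In the order of libraries C3ar1 was 5.10, 4.51, 2.91 and 3.99 times its comparison, lowest in Hevin 1, and C5ar1 was 3.69, 4.95, 3.47 and 4.58 times. Mertk, a receptor for apoptotic cells, differed by -0.38 ± 0.11 and did not pass with DESeq2 size factors. Csf1r, the receptor of CSF1, stood at 2641, 3273, 2481 and 2665 CPM against 2699 to 3703 CPM (-0.36 ± 0.09, adjusted p = 0.0014), lower than its own comparison in all 4 libraries while its ligand gene Csf1 was higher.

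Homeostatic microglial genes, which mark surveying adult cells, were lower in 8 of 20 tested and higher in none, with a median of -0.23 against -0.16 over all genes. The called genes were P2ry13, Tmem119, Sall1, Siglech, Olfml3, Selplg, Slc2a5 and Csf1r. Sall1, a transcription factor that maintains microglial identity, stood at 234, 191, 118 and 149 CPM against 294, 335, 229 and 296 CPM (-0.74 ± 0.15, adjusted p = 7.9e-05). Tmem119, a microglial membrane protein, stood at 1230, 1672, 1040 and 1221 CPM against 1910, 2019, 1539 and 1708 CPM (-0.57 ± 0.09, adjusted p = 2.0e-07). Selplg, the P-selectin ligand, differed by -0.38 ± 0.09 and Slc2a5, a fructose transporter, by -0.67 ± 0.15. Sall1 and Tmem119 were lower than their own library's comparison in 4 of 4 libraries, as were 2638 of all 13674 genes tested. Called counts in the list were 6 with DESeq2 size factors, 7 lower and 1 higher with total counts, 2 with DESeq2, and 2 to 9 with 1 library left out. With P2ry12 at 0.3% or more and Apoe below 0.5% none of the 20 passed. P2ry12, used by the gate, stood at 3916, 4346, 2694 and 3746 CPM against 5435, 5537, 4343 and 4835 CPM.

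Genes of developmental and disease-associated microglia were higher in 8 of 19 tested and lower in none, with a median of 0.61. Cd9, a tetraspanin, stood at 2347, 2093, 1796 and 1890 CPM against 773 to 897 CPM (1.19 ± 0.09, adjusted p = 9.3e-37). Cd63, a tetraspanin of late endosomes, stood at 1718, 1840, 1276 and 1461 CPM against 631 to 840 CPM (1.11 ± 0.09, adjusted p = 6.7e-30). Ank, a pyrophosphate transporter, stood at 145, 115, 47.3 and 57.8 CPM against 27.1 to 34.6 CPM (1.66 ± 0.23). The tetraspanins and Ank lay above the chemokine-zero range in every library. Lpl, lipoprotein lipase, stood at 222, 57.6, 94.5 and 82.5 CPM against 41.1 to 48.2 CPM (1.34 ± 0.22). Lgals3 (2.27 ± 0.56) was at 0 CPM in both Hevin libraries and rests on 8 cells. Ctsb, Cd68 and Csf1 were the other calls, while Spp1, Itgax, Cst7, Trem2 and Axl did not pass.

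Of 17 lysosome genes 4 were higher, and 8 were with DESeq2 size factors. Ctsb, a cathepsin, stood at 2641, 2421, 3285 and 2393 CPM against 1565 to 1600 CPM (0.61 ± 0.09, adjusted p = 3.5e-10). Ctsz stood at 1234, 1109, 1229 and 1411 CPM against 725 to 798 CPM (0.59 ± 0.10). Neither overlapped its comparison. Cd68, a lysosomal membrane protein, differed by 0.45 ± 0.10 and Cd63 is given above. Glycolysis and hypoxia genes were higher in 4 of 15 and lower in 1: Hif1a, the oxygen-sensing factor, by 1.37 ± 0.20, Pfkfb3 by 1.26 ± 0.26, Ldha by 0.61 ± 0.16 and Pgam1 by 0.59 ± 0.18, with Hk2 at -0.41 ± 0.13. Lipid genes were higher in 2 of 13, Lpl and the cholesterol exporter Abcg1 (0.71 ± 0.18). Genes of TGF-beta signalling were higher in 4 of 11. These were Tgif1 (1.31 ± 0.28) and Skil (0.71 ± 0.18), which encode corepressors, the inhibitor Smad7 (0.98 ± 0.22) and Nrros (1.02 ± 0.13), whose product holds latent TGF-beta on microglia. Nrros stood at 399, 373, 544 and 355 CPM against 165 to 192 CPM.

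Survival genes were higher in 3 of 15 tested. Bcl2l1, an inhibitor of apoptosis, stood at 165, 160, 142 and 165 CPM against 43.0 to 58.0 CPM (1.53 ± 0.19, adjusted p = 1.2e-12), and the proapoptotic Pmaip1 (1.80 ± 0.57) and the stress gene Gadd45b (4.06 ± 0.53) were the others. Gadd45b was at 0 CPM in Hevin 2. Of 9 heat shock genes, Hspa5 (0.46 ± 0.12) and Hsp90ab1 (0.33 ± 0.10) were higher. Ptgs1, a cyclooxygenase, was the only called gene of 7 in prostaglandin and leukotriene synthesis, at -0.48 ± 0.12. No antigen presentation gene of 17 tested, S-phase gene of 17 or G2 and M phase gene of 21 was called, and no chemokine-positive cell had the count of dividing-cell transcripts used to call that state. Of 77 ribosomal protein genes Rpl32 and Rpl37a were lower, and neither passed with DESeq2 size factors or total counts. Ribosomal genes took 9.28% to 11.7% of chemokine-positive UMIs and 9.78% to 11.8% of chemokine-zero UMIs.

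Interferon-response genes were higher in 7 of 22 tested and lower in none, and this rested on a few cells. Isg15 stood at 24.2, 26.6, 0 and 198 CPM against 13.6 to 16.7 CPM (1.86 ± 0.35), and Rsad2, an antiviral enzyme, at 12.1, 0, 0 and 173 CPM against 1.60 to 2.58 CPM (3.94 ± 0.55). Hevin 2 held the high values of both. With the 6 chemokine-positive cells that had 3 or more UMIs over 6 interferon genes left out, none of the 18 then tested passed and the median was -0.28. None passed without Hevin 2 or with DESeq2 either, and with that stricter gate of P2ry12 and Apoe none of 18 was higher and 1 was lower.

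The largest differences outside these lists belonged to Gdf15, Gas2l3, Nes and Gm13889. Gdf15, a stress-induced cytokine, stood at 32.3, 26.6, 213 and 8.25 CPM against 0.486 to 0.672 CPM (5.91 ± 0.53), from 24 UMIs in 11 cells. Gas2l3, which links actin and microtubules, stood at 44.4, 66.5, 47.3 and 49.5 CPM against 3.46 to 5.14 CPM (3.70 ± 0.46). Nes, the intermediate filament nestin, stood at 84.7, 62.1, 23.6 and 74.3 CPM against 5.21 to 7.57 CPM (3.36 ± 0.40). The uncharacterised Gm13889 stood at 125, 217, 260 and 74.3 CPM against 13.9 to 22.5 CPM (2.99 ± 0.22). All 4 genes lay above the chemokine-zero range in every library, but Nes in Hevin 1 and Gdf15 in Hevin 2 were 1 UMI each.

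The largest decreases were of genes at low level. Ccng2, a cyclin of resting cells, stood at 16.1, 39.9, 23.6 and 8.25 CPM against 69.8 to 91.4 CPM (-1.94 ± 0.32, adjusted p = 2.6e-07). Bicra, a subunit of a SWI/SNF complex, stood at 20.2, 4.43, 0 and 33.0 CPM against 52.9 to 72.5 CPM (-2.18 ± 0.38, adjusted p = 1.1e-06). Nid2, a basement membrane protein, stood at 24.2, 22.2, 23.6 and 16.5 CPM against 58.3 to 70.2 CPM (-1.67 ± 0.35). None of these sums overlapped its comparison. The other 12 decreases of the naming rule, Primpol, S100a8, Gm43821, Zfp658, Pkd1, Nr6a1os, Dynlt3, Ankrd52, Map2k6, Ypel2, 2310040G24Rik and Gm33989, rest on 2 to 8 UMIs each in chemokine-positive cells. S100a8 marks neutrophils, and its chemokine-zero sums ranged from 4.58 CPM to 51.5 CPM.

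Levels were also followed along the chemokine count within the gate, as a description. Atf3 stood at 4.79 to 6.05 CPM at 0 UMIs, 17.6 to 27.3 CPM at 1 to 2, 32.8 to 155 CPM at 3 to 5, 157 to 228 CPM at 6 to 11 and 311 to 332 CPM at 12 or more. Cd83 went through 37.9 to 43.1, 73.3 to 105, 186 to 284, 296 to 553 and 427 to 689 CPM. The markers were thus already above the chemokine-zero level in cells below the threshold. Egr1 went from 3.54 to 7.94 CPM through 9.49 to 35.9 and 0 to 76.3 to 19.1 to 484 and 194 to 365 CPM. Cd9 reached 1847 to 2288 CPM already at 3 to 5 UMIs and stood at 1590 to 2159 CPM at 6 to 11 and 1786 to 2566 CPM at 12 or more. C3ar1 stood at 262 to 381, 138 to 324 and 359 to 492 CPM in those classes. Tmem119 was at 1539 to 2019 CPM at 0 UMIs, 1262 to 1391 CPM at 3 to 5, 761 to 1793 CPM at 6 to 11 and 1087 to 1567 CPM at 12 or more.

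**Figure D4:**
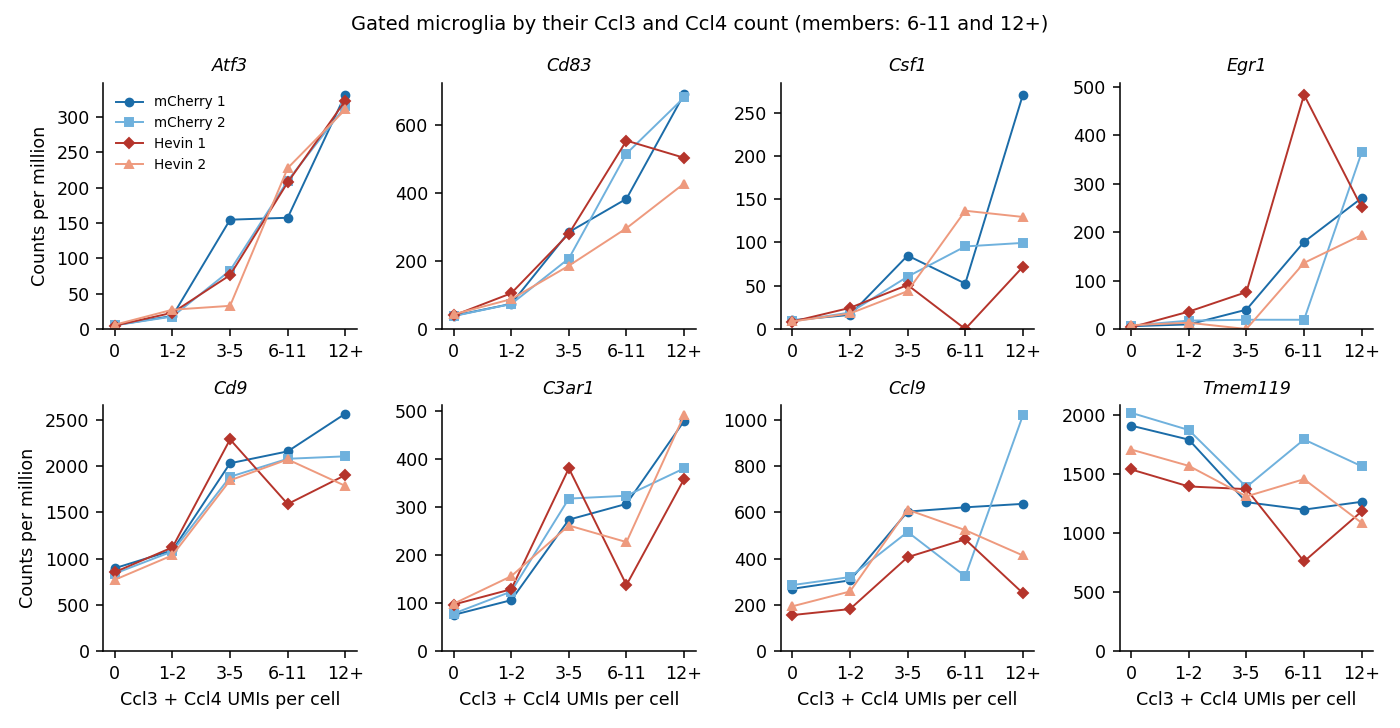
Each panel gives 1 gene's summed level in CPM (vertical axis from 0) in gated microglia grouped by Ccl3 plus Ccl4 UMIs (horizontal axis), with 1 line per library. Atf3 lies at 4.79 to 6.05 CPM at 0 UMIs and at 311 to 332 CPM at 12 or more, while Cd9 lies at 1847 to 2288 CPM already at 3 to 5.

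Around the threshold, 19 cells had exactly 6 UMIs and 22 had exactly 5. Atf3 stood at 234 CPM in the cells with 6 and 127 CPM in those with 5, and Cd83 at 416 and 231 CPM. Csf1 stood at 117 and 115 CPM, and C3ar1 at 325 and 346 CPM. Ccl2 stood at 729 and 80.8 CPM, from 56 and 7 UMIs. These are sums over libraries, with no error.

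Chemokine-positive cells were 0.395% of gated microglia in mCherry 1 (95% exact binomial interval 0.302 to 0.508), 0.528% in mCherry 2 (0.391 to 0.698), 0.214% in Hevin 1 (0.117 to 0.360) and 0.455% in Hevin 2 (0.297 to 0.665). The Hevin mean of 0.334% (SD 0.170, n = 2) was 0.127 points below the mCherry mean of 0.462% (SD 0.0942, n = 2), and the groups overlapped (two-sided exact permutation p = 0.667, where 0.333 is the smallest the design allows). The shallow library was the low one. With cells of at least 1500 UMIs thinned to 1500 the shares were 0.178%, 0.172%, 0.143% and 0.227%. The difference turned to 0.00993 points higher in Hevin. In Hevin 1, 1629 of the 6529 gated cells were shallower and left out, so its thinned shares are of 4900 cells. With a threshold of 3 UMIs after thinning they were 0.388%, 0.496%, 0.367% and 0.455%. A difference in share between Hevin and mCherry was therefore not detectable.

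**Figure D5:**
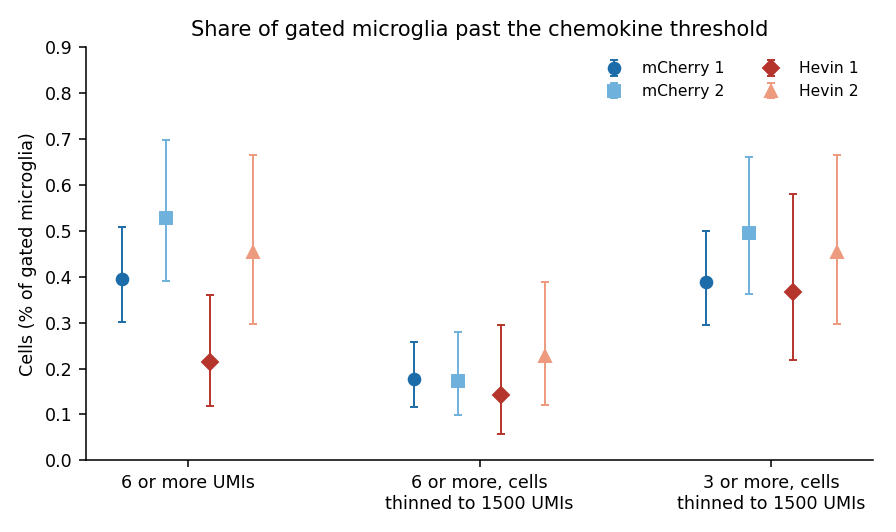
The vertical axis gives the percent of gated microglia past the chemokine threshold, for 6 UMIs as deposited and for 6 or 3 UMIs after thinning to 1500 UMIs, with 1 point per library and 95% exact binomial intervals. Hevin 1 is the lowest point in each set, at 0.214%, 0.143% and 0.367%. The thinned sets leave out 1629 cells of Hevin 1 that held fewer than 1500 UMIs.

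Over all kept barcodes, 66, 58, 35 and 49 reached 6 UMIs. Cells called Apoe-high here had P2ry12 below 0.15% of UMIs, Apoe at 1% or more and at most 2 UMIs over the 4 border genes. They thus failed the microglial gate on P2ry12 as well as on Apoe. Their number was 72 in mCherry 1, 32 in mCherry 2, 7819 in Hevin 1 and 4268 in Hevin 2. The gate itself kept 85.2% and 85.5% of the mCherry barcodes and 33.2% and 43.9% of the Hevin barcodes. Among the Apoe-high cells 1, 1, 14 (0.179%) and 16 (0.375%) had 6 UMIs or more. Border macrophages held 0, 5, 1 and 1 such cells. Endothelial cells held none of 291, 188, 285 and 158, which allows shares of up to 1.03%, 1.60%, 1.05% and 1.90%, although 4.56% to 8.25% of them had at least 1 UMI. Ccl3 stood at 1.81 to 4.82 CPM and Ccl4 at 2.90 to 5.27 CPM over all endothelial cells.

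The Apoe-high cells with 6 or more UMIs in the Hevin libraries were compared with Apoe-high cells without any, a comparison chosen after seeing the data. Atf3 was higher there too, at 149 and 173 CPM against 8.57 and 9.70 CPM (3.89 ± 0.78, adjusted p = 0.00051). Also called higher in these Apoe-high cells were Cd83 (2.14 ± 0.32), Id2 (2.28 ± 0.36), Ccl2 (4.28 ± 0.31), Ccl7 (3.81 ± 0.59), Ccl12 (1.28 ± 0.16) and Spp1 (2.91 ± 0.30). In chemokine-positive microglia Spp1 had not passed and Ccl7 rested on few cells. Egr1 and Csf1 did not pass, with 3.38 ± 1.72 and 1.48 ± 2.18. Cd74, the invariant chain of MHC class II, was lower, at 85.0 and 39.8 CPM against 215 and 237 CPM (-2.23 ± 0.43). In chemokine-positive microglia of the same libraries Cd74 stood at 496 and 206 CPM against 185 and 176 CPM, and the 2 differences differed from each other by -2.85 ± 0.53 (adjusted p = 0.00083). Of the Ccl3 and Ccl4 UMIs in these Apoe-high cells, Ccl4 made up 65.5% in Hevin 1 and 56.8% in Hevin 2, beside 72.8% and 62.9% in the chemokine-positive microglia.

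The question whether Hevin made by astrocytes changed these cells was addressed by 2 tests. Both concern only cells inside the gate, which kept 33.2% and 43.9% of the Hevin barcodes against 85.2% and 85.5% of the mCherry barcodes. Inside it, Apoe in chemokine-zero cells stood at 4602 and 3184 CPM in Hevin and at 1520 and 1266 CPM in mCherry. The part of this selection in the 2 tests was not tested. Hevin 1 differed from the other libraries in Xist as well, and the part of that difference in these tests was not tested. In the interaction test, 1 of 13674 genes differed between Hevin and mCherry in its chemokine-positive against chemokine-zero difference (0.00731%). The median over all genes was -0.20, and -0.09 with total counts only. That gene, Cxcl10, stood at 0, 17.7, 0 and 792 CPM against 2.15, 4.93, 2.71 and 1.79 CPM (6.19 ± 0.88, adjusted p = 2.6e-08). It rests on few cells: 2 of Hevin 2 held it, and 1 of these held 75 of its 100 chemokine-positive UMIs. An unadjusted p below 0.05 was reached by 398 genes, and DESeq2 called none, with 96 below 0.05 unadjusted. The other genes with the smallest p above 10 CPM were Agfg2, Spire1, Slfn5 and Fto in the higher direction and Nutf2-ps1, Cd63, Rp2, H3f3a and Ppan in the lower. Of these Agfg2 rests on 18 of 22 UMIs in 1 cell, and Ppan was at 0 CPM in both Hevin sums. Cd63 stood closest to a gene of the lists above, at -0.70 ± 0.18 with an adjusted p of 0.47. The differences for Atf3 (-0.05 ± 0.50), Cd83 (-0.68 ± 0.25), Csf1 (-0.24 ± 0.61), Egr1 (0.00 ± 0.48) and Ccl2 (-0.13 ± 0.36) did not pass. With SEs of this size, and 14 and 26 chemokine-positive cells in the Hevin libraries, the few calls do not show that the difference was alike in Hevin and mCherry.

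Within the chemokine-positive cells alone, 3189 genes were tested between Hevin and mCherry and 1 passed (0.0314%). Rplp1, a ribosomal protein gene, stood at 2286 and 2182 CPM in mCherry and 3450 and 3672 CPM in Hevin (0.71 ± 0.13, adjusted p = 0.0096). The chemokine-zero cells of the same libraries gave 2086 and 2252 against 3338 and 3516 CPM, so a like difference was measured in both sets, and the interaction for Rplp1 was -0.15 ± 0.18. An unadjusted p below 0.05 was reached by 169 genes, and DESeq2 called none, with 22. In chemokine-zero cells 0 of 16738 genes passed in edgeR, with 926 at an unadjusted p below 0.05, and DESeq2 called 124. The remaining genes by the rule were Pf4, Spire1, Rps29 and Tpt1 in the higher direction and Nutf2-ps1, Rp2, Atp1b3, Zswim6 and Gtf2h2 in the lower, and none passed.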

How the data were processed

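Single-cell RNA of CD11b-selected cortical cells was measured in 4 libraries, 2 per group. The deposited values are unnormalized UMI counts for 32227 genes in each barcode. Reads had been placed on mm10 by the authors (submitters' processing notes). Which aligner and counter were used, whether counting used strand, and how barcodes were called cells: not given in the sources used here. Depth was 49781430 to 67832685 UMIs per library.

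Barcodes, gate and cell sets follow the rule stated in the report, and no doublet caller was run: cells above 2 times the median depth were left out in an alternative. In mCherry 1, mCherry 2, Hevin 1 and Hevin 2 they were 6.67%, 4.08%, 14.3% and 11.5% of chemokine-positive cells. Among chemokine-zero cells they were 2.40%, 1.95%, 6.90% and 2.19%. Without them 585 genes were called against chemokine-zero cells. The part of doublets in the results was not tested. Counts were summed per library and cell set, and edgeR 4.0.16 (quasi-likelihood test, TMM scaling, filterByExpr, Benjamini-Hochberg adjustment, threshold 0.05) was run in R 4.3.3 on the 8 sums with library as a block, on their interaction with group, and on Hevin against mCherry in each set. DESeq2 1.42.0 was an alternative. The SE is the log2 difference divided by the square root of F. CPM values are counts divided by the sum's total. Scripts were tested on simulated data. Intervals (95%, exact binomial) and the limit for 0 cells (3 counts) cover counting error only. Gene positions are from GENCODE vM21 and promoters from RefSeq, GRCm38.p6.

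Genes were named by rule: among called genes of at least 10 CPM on average with the same direction in 4 libraries, the 15 largest and 15 smallest differences, up to 4 members of each list, the 5 markers and all tested chemokine ligands, and for Hevin against mCherry the smallest p where few passed. Where few members of a list were called, the rest were named after their values were seen. The cells, lists and tests were chosen with earlier results of these data known. Lists of marker genes for other cell types are given by their summed levels. Replicate numbers of the labels do not state a pairing. Results for some genes are not reported here.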

Additional observations from a re-analysis of the deposited data

Results flagged for a closer look

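Cxcl10, the gene of a chemokine induced by interferon, was singled out because its chemokine-positive against chemokine-zero difference differed between Hevin and mCherry, a log2 difference of 6.19 with an adjusted p of 2.6e-08 in edgeR. Of its 100 UMIs in chemokine-positive microglia, 75 came from 1 cell of Hevin 2.

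Cd74 was singled out because its difference at the chemokine threshold differed between Apoe-high cells and gated microglia of the Hevin libraries, by -2.85 (adjusted p = 0.00083), from 14 and 16 Apoe-high cells. Cxcl10 differed in the same comparison by -2.48 (adjusted p = 0.029), with the same cell of Hevin 2 in the microglial sum. Groups of 2 libraries do not allow a test for a library that stands apart.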

How the results depend on the processing

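Of the counts of called genes, the one against chemokine-zero microglia was 673, and it was 270 with DESeq2, 425 at a threshold of 10 UMIs, 432 at 0.2% of UMIs, 348 in cells of 2500 to 6000 UMIs, 135 without cells that held markers of other types, 289 with the stricter gate, and 278 to 740 with 1 library left out. The interaction gave 1 gene, and 2 at a mean of 10 CPM or more, 0 with DESeq2, 2 at 4 UMIs, 2 at 0.2% of UMIs, 0 without the interferon-state cells, and 0 to 6 with 1 library left out. Hevin against mCherry in chemokine-positive cells gave 1 gene, and 5 without the low-count filter, 5 at a mean of 10 CPM or more, 0 with DESeq2, 0 at 4 UMIs, 2 at 10 UMIs, 0 at 0.2% of UMIs, 0 in the depth window, 0 without cells over 2 times the median depth, 0 without cells holding other markers, and 3 to 11 with 1 library left out. In chemokine-zero cells it gave 0, and 334 without the filter, 3 at a mean of 10 CPM or more, 124 with DESeq2, 5 in the depth window, 25 without cells holding other markers, 1 with the stricter gate, 1 at a mitochondrial limit of 5%, and 8 to 229 with 1 library left out. The difference in share ran from -0.247 to -0.0071 points with 1 library left out. It turned to 0.00993 points with cells thinned to 1500 UMIs and the threshold of 6 kept, without 1629 shallower cells of Hevin 1. Several of these settings leave fewer cells, libraries or genes, and beyond that the cause was not tested.

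The labels' replicate numbers do not say that libraries were paired. Deviations of same-numbered libraries correlated by 0.024 in chemokine-positive and 0.495 in chemokine-zero cells, over 2 pairs. With the replicate block the count of genes between Hevin and mCherry was 2 in chemokine-positive and 462 in chemokine-zero cells. Without the library block, 517 genes separated chemokine-positive from chemokine-zero cells.

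Of 78 named genes called against chemokine-zero cells, 23 were called in the same direction under every alternative run, among them Atf3, Cd83, Csf1, Egr1, Egr2, Egr3, Ccl2, Ccl12, C3ar1, C5ar1, Cd63 and Rgs2. Among called genes the sign turned for Ccl5, at -0.29 without the interferon-state cells, -0.37 without Hevin 2 (-0.37 to 3.56 over the libraries left out) and -0.40 at a mitochondrial limit of 5%. Without the interferon-state cells it also turned for Ifi204, at -0.76, and Isg15, at -0.33. The other sign changes were of genes that had not passed. Ccl8 was -0.40 to 0.027 with 1 library left out, 0.090 at 0.2% of UMIs and 0.12 with the stricter gate. Ccl24 was -0.29 to 0.32 with 1 library left out, -0.43 at 10 UMIs, -0.34 at 0.2%, -0.18 in the depth window, -0.93 without cells holding other markers, -0.13 with the stricter gate and -0.43 at a mitochondrial limit of 5%. Cxcl14 was -0.91 at 0.2% of UMIs. Pf4 was -0.20 to 0.081 with 1 library left out, 0.011 with DESeq2 size factors, 0.012 with total counts or the stricter gate, 0.025 with DESeq2, 0.059 at 10 UMIs and 0.12 without cells holding other markers.

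The interferon-state alternative was chosen after seeing the data. A setting that left a group's chemokine-positive cells without a UMI of a gene gave no fold, which for the interaction of Cxcl10 included leaving out Hevin 2. Where a group kept 1 library, that library was assumed to vary like the others. Hevin 1, with 14 cells and 42318 UMIs, limits the depth most.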
